A study of Mus musculus with 16 samples.

Results

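Oligodendrocyte precursor cells (OPCs) are the dividing glial cells from which oligodendrocytes are made in the adult spinal cord, and they are described here in mice with and without a cervical spinal cord injury. They were taken as the cells that the authors had placed in Cluster 11 and annotated as OPCs, which gave 637 of the 18203 deposited cells (3.50%). Single-cell suspensions were made from spinal cord, with pronase and actinomycin D, and each of the 16 mice gave 1 droplet library of the 10x Genomics 3′ type. Control mice carried the Ryk+/+,GFAPcreERT2 genotype (WT) and conditional knockout mice the Rykfl/fl,GFAPcreERT2 genotype (cKO), so that the tamoxifen-inducible Cre was present in both. Mice of either genotype were uninjured or were taken 1 d, 7 d or 14 d after a C5 dorsal column lesion, with 2 mice in each of the 8 conditions, at 8 to 10 weeks of age. The label of the uninjured mice is Sham, whereas the study calls them uninjured. The GFAP promoter drives this Cre in astrocytes, so OPCs of cKO mice are cells next to the targeted type rather than the targeted type.

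As background, OPCs tile the grey and white matter and are recognised by the receptor for platelet-derived growth factor, by the proteoglycan NG2 and by their tie to the Sox10 and Olig2 lineage. They receive synapses from neurons, express glutamate receptors and ion channels, and make chondroitin sulfate proteoglycans and tenascins of the extracellular matrix. After spinal cord injury OPCs around the lesion proliferate, join the glial scar and give rise to new oligodendrocytes, by way of committed precursors that switch off Pdgfra and switch on genes such as Gpr17, Bcas1 and Enpp6.

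The OPCs came from 15 mice, with 48, 20, 8 and 18 cells in uninjured mice and 32, 82 and 42 at 1 d. At 7 d there were 64, 22, 133 and 30, and at 14 d 22, 28, 34 and 54. Here and in every series of values per mouse, WT replicates 1 and 2 come first and cKO replicates 1 and 2 follow, and at 1 d there is a single WT mouse, replicate 1. The other WT mouse at 1 d had 1 cell with 266 unique molecular identifiers (UMIs), and that cell was not an OPC. In all, the OPCs held 1861180 UMIs, which stand for captured RNA molecules, with a median of 1000 UMIs and 705 genes per cell. The median over all 18203 cells was 1175 UMIs. Single OPCs ranged from 222 to 37190 UMIs, had at least 203 genes and at most 21.0% mitochondrial UMIs, within the authors' limits of more than 200 genes and under 25%. No step that removes doublets is given in the sources used here.

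Several libraries stood apart before any comparison. For the 1 d and 7 d libraries of replicate 1 (WT and cKO at 1 d, then WT and cKO at 7 d), the median over all cells was 414, 421, 414 and 548 UMIs, against 1040.5 to 3637 UMIs in the other 11 libraries with OPCs. Those 4 shallow libraries held 311 of the 637 OPCs, with a median of 433 UMIs per OPC against 2907.5 in the other libraries. For 6 mice, all of them replicate 2, cell names and sample labels disagree on the condition. These were WT uninjured (named cKO uninjured), cKO uninjured (WT 7 d), WT 1 d (WT 14 d), WT 7 d (WT 1 d), WT 14 d (cKO 14 d) and cKO 14 d (cKO 7 d), and the labels were followed. Of the 18203 cells, 432 carried a barcode that occurred in more than 1 library (166 barcodes), and 10 of them were OPCs, with 2 barcodes found as OPCs in more than 1 library. The shallow libraries held 119, 76, 122 and 41 of the 432 cells. Values are therefore also given without the 4 shallow libraries and without the 6 mice named differently, choices that were made after seeing the data.

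For levels of genes, the UMIs of the OPCs of a mouse were summed and scaled to the total of the OPC UMIs of that mouse (CPM, counts per 1000000). The 14 mice with at least 10 OPCs, with 18106 to 396287 OPC UMIs each, entered the tests of genes, 3 uninjured and 11 injured, 7 WT and 7 cKO. The cKO uninjured replicate 1, with 8 OPCs and 25152 OPC UMIs, did not enter them. Its value is printed as the third of the uninjured values and is left out of fold changes and of statements on overlap. Log2 fold changes are given with p from quasi-likelihood fits in edgeR with terms for time and genotype, adjusted over 3416 genes by the Benjamini-Hochberg method. The ± is an approximate standard error, the absolute log2 fold change divided by the square root of the F statistic of its test.

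Ryk, the Wnt receptor deleted in the cKO mice (ENSMUSG00000032547.12, chr9:102834917-102908305, + strand, mm10), was counted in the OPCs of each of the 15 mice. It stood at 76.4, 62.1, 79.5 and 21.7 CPM in uninjured mice, 55.2, 125 and 72.1 CPM at 1 d, 147, 47.98, 69.4 and 72.6 CPM at 7 d, and 125, 59.5, 55.5 and 79.9 CPM at 14 d. These levels rest on 1 to 23 UMIs per mouse. WT and cKO mice overlapped, with values from 47.98 to 147 CPM (median 62.1) in the 7 WT mice and from 21.7 to 125 CPM (median 72.1) in the 7 cKO mice. The log2 fold change of cKO over WT was −0.31 ± 0.40 (edgeR adjusted p = 1.00). In astrocytes of the same mice, the type in which the Cre is driven, Ryk was at 126, 70.1, 68.8 and 116 CPM in uninjured mice, 103, 23.96 and 79.02 CPM at 1 d, 169.5, 131, 94.02 and 126 CPM at 7 d, and 115, 112, 136 and 135 CPM at 14 d, again with overlap of the genotypes. The astrocyte values rest on 1 to 175 UMIs per mouse, and the 23.96 CPM of cKO 1 d replicate 1 on 1 UMI. The position of the deleted exon is not given in the sources used here and the libraries count 3′ ends, so these counts may check nothing about the genotype labels. After injury, the mean log2 fold change of Ryk in OPCs over the 3 times was 0.42 ± 0.54, with overlapping groups, and it turned to −0.07 with the conditions of the cell names.

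The label was checked against markers. Pdgfra, the receptor for platelet-derived growth factor (chr5:75152292-75198215, + strand), was at 763 CPM over all OPCs, 39.2-fold above all other cells. Tnr, which encodes the matrix glycoprotein tenascin-R (chr1:159523769-159931729, + strand), was at 4170.5 CPM and 60.5-fold above other cells. For Lhfpl3, a membrane protein of the LHFPL family (chr5:22746059-23275597, + strand), the level was 4894 CPM and the fold 29.4. Vcan, the proteoglycan versican (chr13:89655312-89742509, − strand), had 1741 CPM and a fold of 53.8, and Gpr17, a receptor of committed precursors (chr18:31942997-31949636, − strand), had 551 CPM and a fold of 200 (199.7). All positions are those of the GENCODE vM21 annotation of mm10. Of 13 OPC markers, 11 were higher in Cluster 11 than in any other cluster. Cspg4, the NG2 core protein, was at 438 CPM against 584 CPM in pericytes, and the transcription factor Sox10 at 371 CPM against 388 CPM in Schwann cells. At least 3 of the 5 label markers had a UMI in 437 OPCs (68.6%) and in 309 other cells (1.76%). In 10 OPCs, at a median of 983 UMIs, 0 of the 5 were found, whereas the cells with at least 3 had a median of 1820 UMIs. Since the cells were clustered on the same values, these comparisons carry no test.

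To compare shares of cells at a single depth, cells were thinned to 1000 UMIs, which kept 319 OPCs (median 2955 UMIs before thinning) and left out 318. Pdgfra had a UMI in 41.7% of these OPCs (59.6% before thinning), and in 0.346% of 578 thinned microglia of Cluster 6 (median 5273.5 UMIs), which should lack it. Tnr was found in 85.9% of OPCs (93.7% before thinning) and 0.519% of microglia, and Vcan in 68.3% (84.6% before thinning) and 0.519%. For Lhfpl3 the shares were 74.6% (85.0% before thinning) and 1.21%. Gpr17 was found in 28.2% of OPCs (45.1% before thinning) and in 0 of 578 microglia, a count that allows up to 3 cells. Within the thinned OPCs, 34 (10.7%) held UMIs of both Pdgfra and Gpr17, 99 (31.0%) of Pdgfra alone, 56 (17.6%) of Gpr17 alone and 130 (40.8%) of neither.

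Among genes found in at least 10% of OPCs, the 20 with the highest fold over all other cells were led by Gpr17 (200-fold, 199.7), the sialidase gene Neu4 (150-fold, 149.6) and 3 unnamed transcripts, Gm37731, Gm42948 and Gm32509 (104, 101 and 81.7-fold). C1ql1, which encodes a secreted C1q-like protein, followed at 72.0-fold, then Inava at 63.3-fold and the myosin-binding protein gene Mybpc1 at 62.7-fold. The list went on with Tnr, A930009A15Rik (59.2-fold), Vcan, Tmem255b (50.9-fold), the retinaldehyde-binding protein gene Rlbp1 (45.2-fold), Gm38505 (43.8-fold), Snx22 (39.5-fold) and Pdgfra. It ended with Vxn, Susd5, Mroh3 and the metalloproteinase gene Mmp16, at 37.5, 36.7, 33.3 and 33.3-fold.

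Markers of other cell types were also counted in OPCs. The 10 oligodendrocyte markers summed to 7963 CPM, 17.3% of their level in oligodendrocytes. The 7 astrocyte markers summed to 1225 CPM (9.32% of their level in astrocytes, Slc1a2 the most abundant at 758 CPM) and the 7 neuron markers to 313 CPM (18.0%, Snap25 at 165 CPM). Lower were microglial markers at 181 CPM (0.890%) and endothelial markers at 297 CPM (1.93%, Flt1 at 145 CPM). Still lower were Schwann cell markers at 52.7 CPM (0.161%), red blood cell markers at 45.1 CPM, pericyte markers at 37.6 CPM (0.301%), fibroblast markers at 18.8 CPM and immune cell markers at 15.6 CPM. Kcnj8 of the pericyte markers, Lum of the fibroblast markers and Cd74 of the immune markers had 0 UMIs in the 637 OPCs. UMIs of at least 3 oligodendrocyte markers were present in 279 OPCs (43.8%), of at least 3 astrocyte markers in 94 (14.8%) and of at least 3 neuron markers in 30 (4.71%). At a thinned depth, Mog was found in 8.15% of OPCs (16.9% before thinning), 0.346% of microglia and 44.0% of 1420 oligodendrocytes (median 1960.5 UMIs).

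Within the oligodendrocyte lineage, OPCs were set beside the 2 oligodendrocyte clusters, Cluster 4 with 1768 cells and Cluster 8 with 892 cells. Pdgfra stood at 763 CPM in OPCs, 4.47 in Cluster 4 and 4.83 in Cluster 8, and Gpr17 at 551, 10.5 and 0.744 CPM. Genes of committed precursors did not share a single order. Bmp4, a secreted ligand made by differentiating precursors, was at 95.1, 3.13 and 1.12 CPM, the Wnt effector Tcf7l2 at 405, 89.8 and 19.7 CPM, and the Src-family kinase Fyn at 1118, 142 and 91.1 CPM, all highest in OPCs. Enpp6, a choline phosphodiesterase of newly formed oligodendrocytes, was at 229 CPM in OPCs and 154 CPM in Cluster 4 but at 518 CPM in Cluster 8. The myelin genes Mog (73.6, 883 and 1073 CPM) and Mbp (2721, 6605 and 7878 CPM) were higher in both oligodendrocyte clusters than in OPCs. Among transcription factors, Sox6 (1323, 54.5 and 12.6 CPM) was highest in OPCs. In contrast, Nkx6-2 (14.0, 199 and 281 CPM) and Myrf (77.4, 319.8 and 297 CPM) were higher in the oligodendrocyte clusters.

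**Figure D1:**
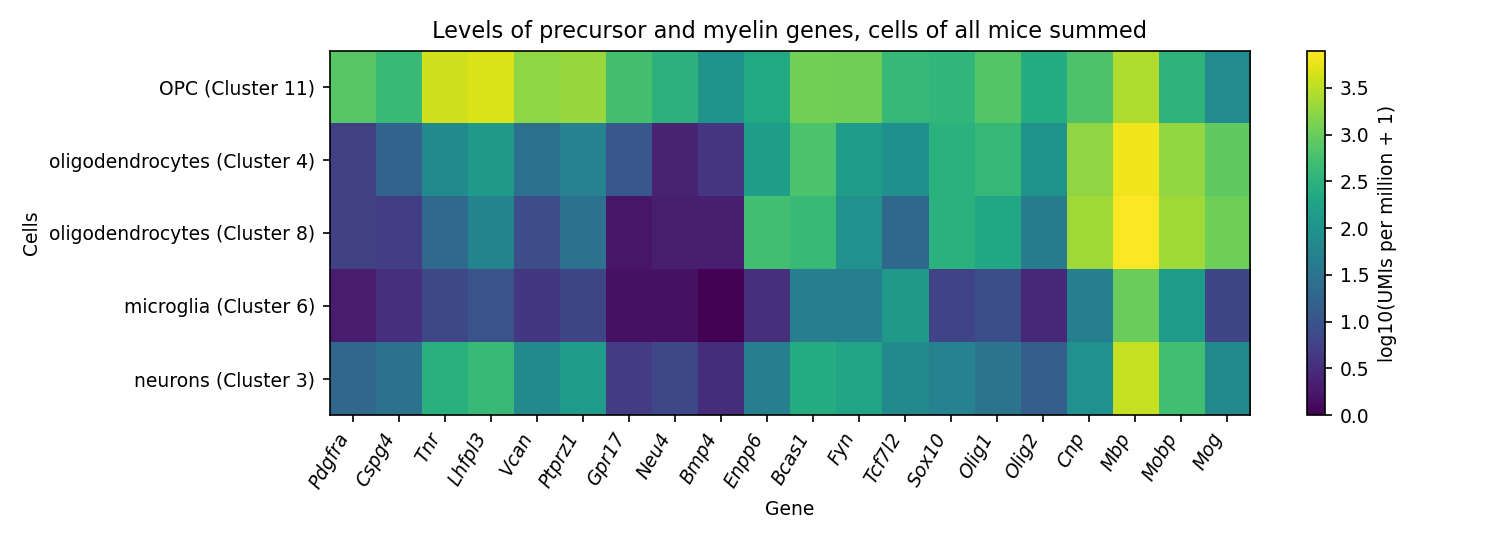
Levels of precursor and myelin genes in OPCs, in the oligodendrocyte Clusters 4 and 8, in microglia of Cluster 6 and in neurons of Cluster 3, with the cells of all mice summed. The colour gives log10 of CPM plus 1. OPCs hold the highest values of Pdgfra, Tnr, Vcan, Gpr17, Neu4 and Bmp4, whereas Mbp, Mobp and Mog are highest in Cluster 8.

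OPCs differed among themselves along the same genes. Of the 319 cells with at least 1000 UMIs, 86 held a UMI of Enpp6 or Bmp4 and 233 held none of either, at median depths of 2873.5 and 3134 UMIs. The split was made after the values were seen and is a description without a test. Cells with Enpp6 or Bmp4 had 2401 CPM of Bcas1, a gene of early myelinating oligodendrocytes, against 598 CPM in the others. Fyn was at 2897 against 345 CPM, the axon-contact molecule Nfasc at 2577 against 358 CPM and Tcf7l2 at 999.8 against 144 CPM. Of the 12 mice with at least 3 cells of each kind, Fyn and Nfasc were higher in the cells with Enpp6 or Bmp4 in 12 and Tcf7l2 in 11. The scaffold gene Cnksr3 (374 against 42.9 CPM), Frmd4a (4319 against 642 CPM) and the noncoding transcript 9530059O14Rik (798 against 29.2 CPM) were also on this side, in 9, 7 and 11 of the 12 mice. Pdgfra had the reverse order, at 127 against 1031 CPM, and was lower in these cells in 10 of 12 mice and higher in 1. So did Lhfpl3 (2099 against 6015 CPM), the receptor phosphatase gene Ptprz1 (828 against 2457 CPM) and the proteoglycan gene Cspg5 (95.3 against 977 CPM), each lower in these cells in 12 of 12 mice. Not all genes of the precursor surface went with Pdgfra. Of the 18 listed, 3 were higher in the cells with Enpp6 or Bmp4, the tenascin gene Tnr (5646 against 3444 CPM, in 11 of 12 mice), Opcml (4762 against 3212 CPM, in 10) and Sulf2 (488 against 437 CPM, in 8).

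Markers of oligodendrocytes went with the split. Mbp was at 4227 CPM in the cells with Enpp6 or Bmp4 and 1901 CPM in the others, and Mog at 155 and 35.2 CPM. Cnp was at 1678 and 178 CPM and Cldn11 at 755 and 63.5 CPM, higher in the former cells in 11 and 10 of 12 mice. Aspa was at 56.1 and 31.7 CPM, higher in 4 mice and lower in 4. The part of these markers in the split was not tested. Thinned to 1000 UMIs, 50 OPCs (15.7%) still held Enpp6 or Bmp4, against 4 microglia (0.692%). Enpp6 alone was found in 12.2% of thinned OPCs and in 19.8% of thinned oligodendrocytes of Clusters 4 and 8. For Bmp4 these shares were 6.58% and 0.352%. Pdgfra was found in 2 of the 50 OPCs with Enpp6 or Bmp4 (4.00%) and in 131 of the other OPCs (48.7%), and Gpr17 in 30 (60.0%) and 60 (22.3%). In the mice with at least 20 OPCs of this depth, the thinned share with Enpp6 or Bmp4 was 7.14% in WT uninjured replicate 1 and 3.13% in cKO 1 d replicate 2. At 7 d it was 10.0% in WT replicate 2, 53.6% in cKO replicate 1 (95% exact binomial interval 33.9 to 72.5%) and 25% in cKO replicate 2 (9.77 to 46.7%), and at 14 d 11.5%, 9.38% and 8.33% in WT replicate 2 and both cKO mice. The high value of 53.6% came from a shallow library, in which 28 of 133 OPCs reached this depth.

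The share of OPCs among the cells of a mouse was compared between injured and uninjured mice and between genotypes. It was 4.90, 1.45, 3.85 and 1.45% in uninjured mice and 3.12, 6.70 and 2.28% at 1 d. At 7 d the values were 5.32, 2.62, 7.45 and 1.97%, and at 14 d they were 2.17, 2.15, 3.00 and 3.61%. The highest values, 6.70% and 7.45%, were those of cKO replicate 1 at 1 d and 7 d, both shallow libraries, and injured and uninjured mice overlapped. Injured mice had 3.67 ± 1.94% (SD, n = 11) and uninjured mice 2.91 ± 1.74% (SD, n = 4), a difference of 0.761 percentage points (exact two-sided permutation test, p = 0.514, adjusted over 4 tests 0.685, smallest possible p 0.000733). Without the shallow libraries the difference was −0.369 points (exact permutation p = 0.606) and without the 6 mice named differently −0.371 points (exact permutation p = 0.867). After injury cKO mice had 4.17 ± 2.34% (SD, n = 6) and WT mice 3.08 ± 1.32% (SD, n = 5), a difference of 1.08 points averaged over the times (exact permutation within times, p = 0.417, adjusted 0.685, smallest possible p 0.00926). It was 0.250 points without the shallow libraries and 0.528 points without the 6 mice.

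**Figure D2:**
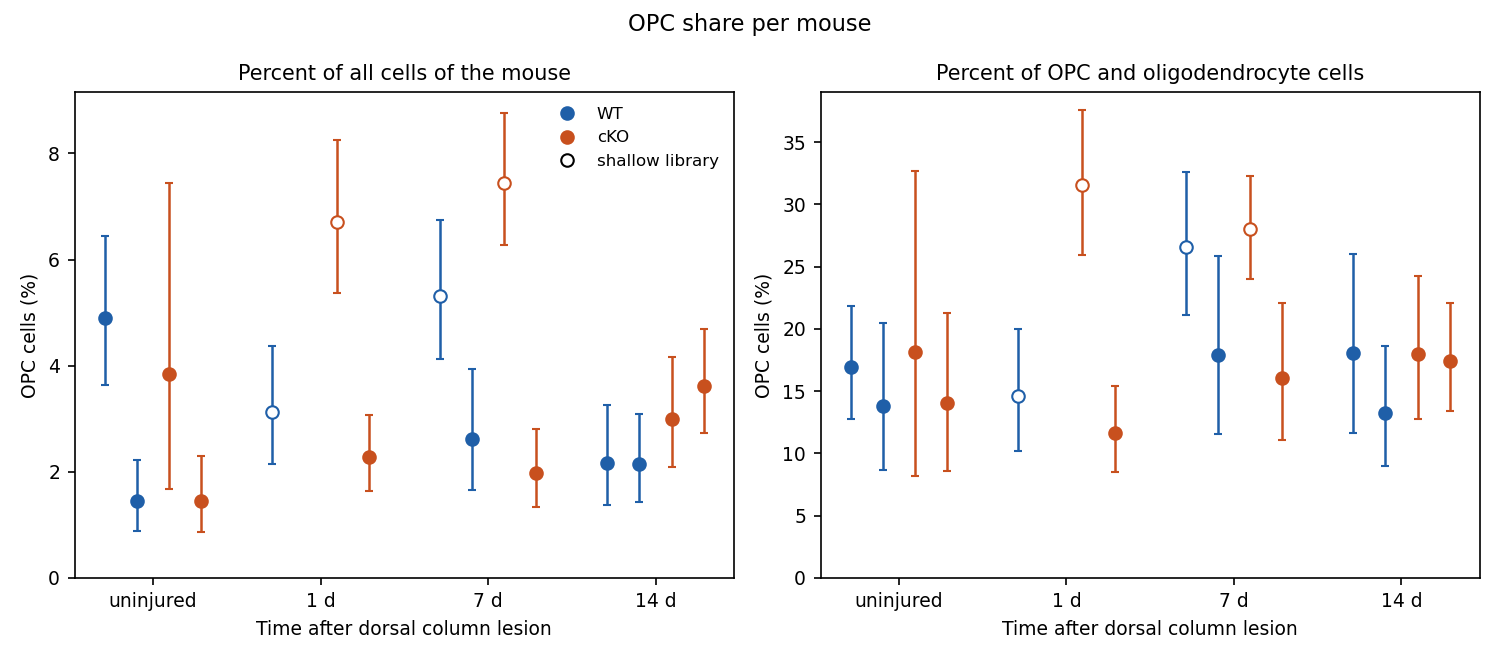
Percent of cells that were OPCs in each of 15 mice, among all cells of the mouse (left) and among OPCs and oligodendrocytes of Clusters 4 and 8 (right), by time after the lesion. Points are mice with 95% exact binomial intervals, blue for WT and orange for cKO, and open points are the 4 shallow libraries, which hold the 3 highest values in either panel.

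Among cells of the oligodendrocyte lineage (OPCs and Clusters 4 and 8), OPCs made up 16.96, 13.8, 18.2 and 14.1% in uninjured mice and 14.6, 31.5 and 11.7% at 1 d. At 7 d the values were 26.6, 17.9, 28.0 and 16.04%, and at 14 d they were 18.03, 13.3, 17.99 and 17.4%. Values over 20% were found in 3 shallow libraries alone, those of cKO at 1 d and of WT and cKO at 7 d. The means were 19.4 ± 6.44% (SD, n = 11) in injured and 15.7 ± 2.16% (SD, n = 4) in uninjured mice, 3.62 points apart (exact permutation p = 0.321, adjusted 0.685), and 0.294 points apart without the shallow libraries and 2.98 without the 6 mice. Counted over cells with at least 1000 UMIs, injured mice were lower, at −2.98 points (exact permutation p = 0.234). Between genotypes after injury, 20.4 ± 7.64% in cKO (SD, n = 6) stood against 18.1 ± 5.17% in WT (SD, n = 5), 2.95 points apart within times (exact permutation p = 0.685, adjusted 0.685), and 0.105 points without the shallow libraries and 0.804 without the 6 mice. Without cKO 1 d replicate 1 alone this difference was −0.364 points.

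Which genes of OPCs differed after injury was asked at each time and for the mean of the times, against 3 uninjured mice. edgeR called 0 of 3416 genes (0%) at an adjusted p under 0.05 at 1 d, at 7 d, at 14 d and for the mean, with smallest adjusted p of 0.0535, 0.238, 0.219 and 0.178. At an unadjusted p under 0.05 there were 140 genes at 1 d (4.1%), 216 at 7 d (6.32%), 178 at 14 d (5.21%) and 193 for the mean (5.65%). DESeq2, the other tool run, called 1 gene at 1 d (0.0293%), 9 at 7 d (0.263%), 1 at 14 d (0.0293%) and 3 for the mean (0.0878%). It gave no adjusted p for 464 of the 3416 genes at 7 d and for 2185 for the mean. In 307 genes at 1 d (8.99%), 258 at 7 d (7.55%) and 329 at 14 d (9.63%), the values of all injured mice of the time lay on 1 side of the uninjured mice, which share the same 3 controls. The median log2 fold change over all 3416 genes was −0.05 at 1 d, −0.02 at 7 d, 0.01 at 14 d and −0.04 for the mean. Without the 6 mice named differently, edgeR called 49 genes at 14 d (42 higher) and 6 for the mean. WT replicate 1 was then the lone uninjured mouse. Leaving out the shallow libraries instead gave 0 calls among 5349 genes, and 453 (7 d), 290 (14 d) and 371 (mean) passed an unadjusted p of 0.05. The 1 d values then rest on 1 mouse, cKO replicate 2, and 261 genes did so there.

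Vgf, which encodes a precursor of secreted neuropeptides (chr5:137026392-137033351, + strand), had the smallest p at 1 d and was chosen after its values were seen. It was at 0, 0, 0 and 0 CPM in uninjured mice, 221, 274 and 697 CPM at 1 d, 0, 0, 0 and 15.6 CPM at 7 d, and 0, 4.58, 5.05 and 10.4 CPM at 14 d. All 3 mice at 1 d lay above every other mouse, with 102 UMIs in all against 0 of 225340 UMIs over the 3 uninjured mice. Vgf passed the filter on low counts through the mice at 1 d, the group where it was high. Against a floor of 3 counts over the uninjured group (13.3 CPM), the 557 CPM at 1 d were at least 41.8-fold higher (edgeR adjusted p = 0.0535, DESeq2 adjusted p = 0.0102). Of the 102 UMIs 87 came from cKO 1 d replicate 2, and without it the other 15 UMIs (258 CPM) were at least 19.3-fold above the floor. With the replicate number as a block, edgeR's adjusted p was 0.00854. It was 0.640 without cKO 1 d replicate 2, 0.623 without WT 1 d replicate 1, 0.337 with condition means and 1.00 with at least 20 OPCs per mouse. Over the 14 mice left out in turn it ran from 0.0163 to 1.00. At 7 d and 14 d, with 3 and 6 UMIs, Vgf was under that floor. Vgf is also made by neurons, whose 7 markers summed in OPCs to 359, 145, 636 and 260.3 CPM in uninjured mice and 166, 299 and 400.5 CPM at 1 d. Of those 7 markers 2 were tested, 1 higher and 1 lower at 1 d, and their part in the result was not tested.

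The committed precursor genes stood on the higher side at 7 d. This list, like the others, was chosen with earlier results of these data known, so its counts are a description without a test. Of 16 listed genes 14 were tested, and 11 were higher and 3 lower at 7 d, with a median log2 fold change of 0.80 against −0.02 over all genes. At 7 d 5 of the 14 had an unadjusted p under 0.05, all higher, and 7 of the 14 lay above all uninjured mice, against 6.32% and 7.55% of all genes. At 1 d 9 were higher (median 0.30) and at 14 d 11 (median 0.61), and edgeR called 0 at any time. With no filter on low counts it called Enpp6 and Cnksr3 at 7 d, in a fit that also called the endothelial marker Slco1a4 and the astrocyte marker Gja1. Without cKO 1 d replicate 1 the median at 1 d was −0.01. With single mice left out, the median ran from 0.45 to 1.08 at 7 d and from 0.26 to 0.89 at 14 d. With the shallow libraries left out, 9 of 15 tested were higher at 7 d (median 0.77) and 12 at 14 d (median 0.58). At 1 d 7 were higher (median −0.60) in the 1 mouse left.

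Enpp6 (chr8:46986887-47096762, + strand) was at 38.2, 41.4, 79.5 and 21.7 CPM in uninjured mice, 442, 74.8 and 168 CPM at 1 d, 413, 184, 684 and 150.3 CPM at 7 d, and 305, 151, 437 and 76.4 CPM at 14 d. In the mice of the fit, each injured mouse lay above the uninjured ones at all 3 times, while the third uninjured value, of the mouse with 8 OPCs, was above 2 of the injured mice. The log2 fold change was 2.31 ± 0.92 at 1 d, 3.19 ± 0.82 at 7 d and 2.63 ± 0.81 at 14 d (edgeR adjusted p = 1.00, 0.256 and 0.735). These rest on 8 UMIs in uninjured mice and 32, 135 and 250 UMIs at the 3 times. Without the shallow libraries the value at 7 d was 2.17, and without the 6 mice 3.39.

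Cnksr3, a scaffold of Ras signalling found in newly formed oligodendrocytes, was at 30.5, 20.7, 79.5 and 21.7 CPM in uninjured mice, 0, 125 and 216 CPM at 1 d, 177, 504, 446 and 176 CPM at 7 d, and 180.4, 32.03, 146 and 31.3 CPM at 14 d. The 4 mice at 7 d lay above the uninjured mice of the fit, at a log2 fold change of 3.51 ± 0.87 (edgeR adjusted p = 0.238), and 3.66 without the shallow libraries and 2.42 without the 6 mice. Tcf7l2, a transcription factor needed for oligodendrocyte differentiation, was at 168, 62.1, 278 and 260.3 CPM in uninjured mice and 531, 999.5, 872 and 295 CPM at 7 d. Its 7 d mice were all above the uninjured mice (1.92 ± 0.61, edgeR adjusted p = 0.466), and the value was 1.91 and 1.16 without the shallow libraries and without the 6 mice. Bcas1 was at 863, 518, 795 and 716 CPM in uninjured mice, 1381, 1321 and 449 CPM at 1 d, 1886, 1303, 1794 and 1203 CPM at 7 d, and 1609.8, 984, 1676 and 729 CPM at 14 d. Here too the 7 d mice lay above the uninjured ones, with a log2 fold change of 1.03 ± 0.45 (edgeR adjusted p = 0.738). Fyn, at 679.7, 869.7, 636 and 738 CPM in uninjured mice and 1002, 1447, 1457 and 1182 CPM at 7 d, had a log2 fold change of 0.64 ± 0.44 at 7 d. Gpr17 was at 405, 932, 0 and 694 CPM in uninjured mice, 276, 773 and 112 CPM at 1 d, 737, 552, 674 and 269.5 CPM at 7 d, and 333, 622, 863 and 448 CPM at 14 d. Its groups overlapped, and its log2 fold changes were negative, at −1.07, −0.41 and −0.38.

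**Figure D3:**
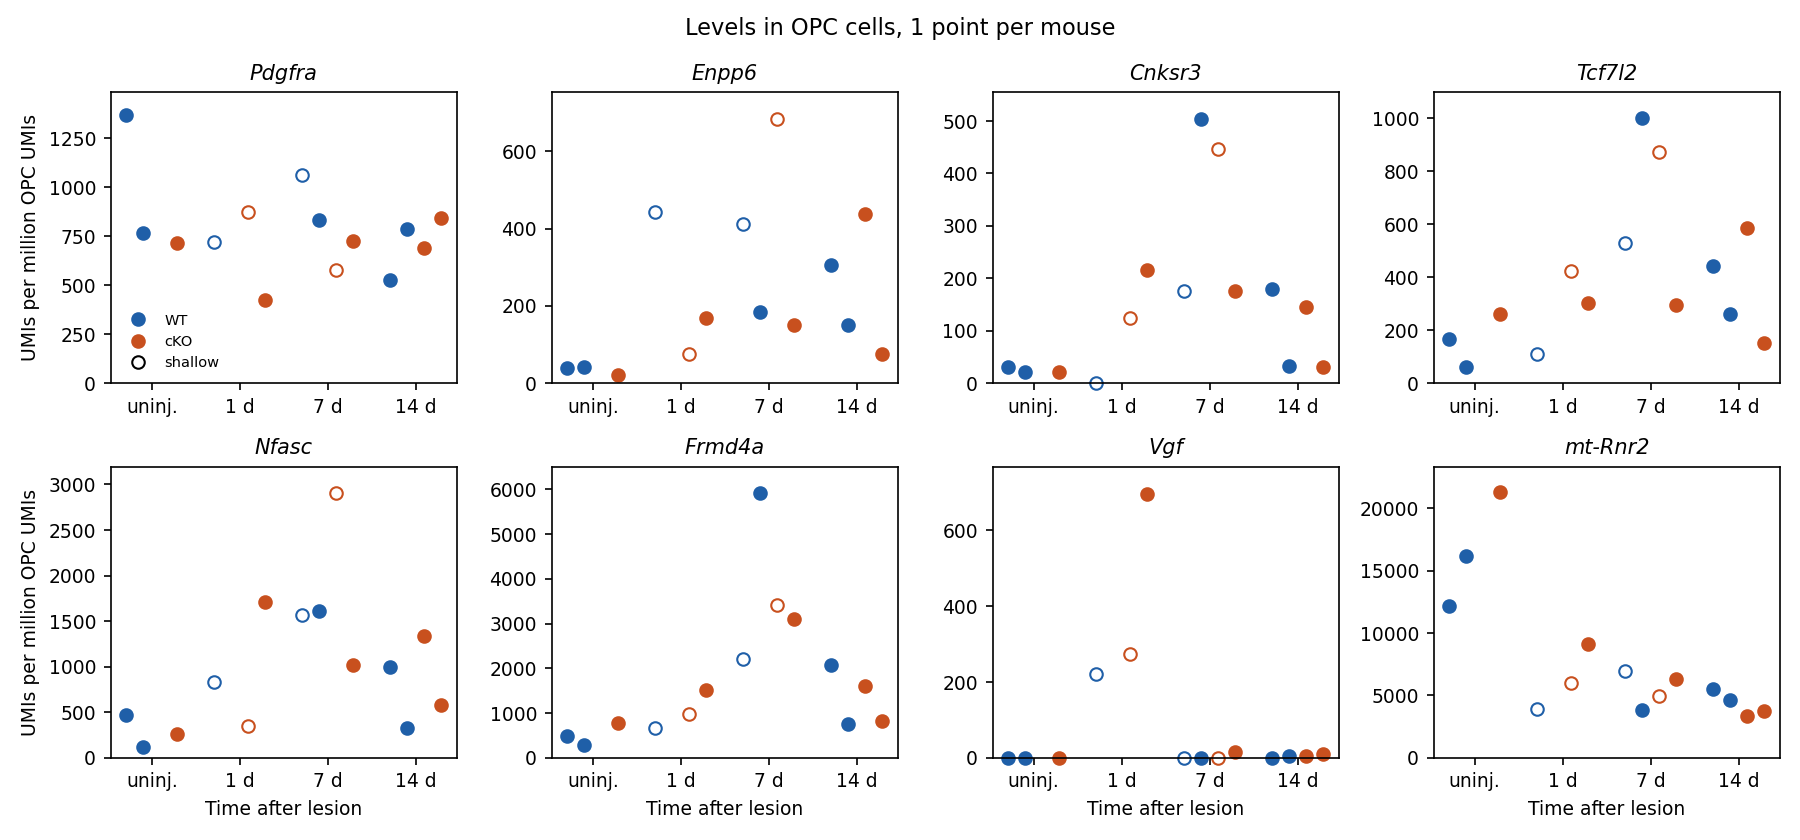
Levels of 8 genes in the OPCs of each of the 14 mice in the fits, in CPM, by time after the lesion, with blue for WT, orange for cKO and open points for the 4 shallow libraries. Enpp6 lies above the uninjured mice at each time, Vgf at 1 d alone, and mt-Rnr2 lies below them at each time.

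Oligodendrocyte markers in OPCs are given beside this list. Of the 10 markers 7 were tested in OPCs, and 5, 7 and 3 of the 7 were higher at 1 d, 7 d and 14 d. Summed over the 10, they stood at 4704, 4121, 12961 and 5249 CPM in uninjured mice, 6407, 5009 and 13945 CPM at 1 d, 7251, 4142, 19501 and 10688 CPM at 7 d, and 6300.3, 3761, 8681 and 6494 CPM at 14 d, highest in cKO 7 d replicate 1. Of the 10, 0 were at 0. When the shallow libraries were left out, 4 of 8 tested were higher at 7 d. Of the 5 endothelial markers 2 were tested, both with a positive log2 fold change at each time. The sums over the 5 overlapped between injured and uninjured mice at each time. The 5 summed to 7.64, 207, 875 and 0 CPM in uninjured mice, 331, 847 and 168 CPM at 1 d, 29.5, 104, 337 and 1249 CPM at 7 d, and 13.9, 517, 22.7 and 159.8 CPM at 14 d, with Flt1 the most abundant and 0 of the 5 at 0. The part of either in the values of the committed precursor genes was not tested.

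Myelin genes, the products of the next stage, had mixed signs. Of 15 listed genes 12 were tested, and 7 were higher at 1 d (median 0.17), 10 at 7 d (median 0.53) and 6 at 14 d (median −0.04), with 0, 0 and 1 at an unadjusted p under 0.05, against 4.1, 6.32 and 5.21% of all genes. Without the shallow libraries 6 of 13 were higher at 7 d, with a median of −0.26. Mal, a lipid raft protein of myelin and the gene with an unadjusted p under 0.05 at 14 d, was at 176, 41.4, 278 and 43.4 CPM in uninjured mice and 55.5, 18.3, 2.52 and 48.6 CPM at 14 d. The groups overlapped, at a log2 fold change of −1.87 ± 0.80 (edgeR adjusted p = 0.852).

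The direction of the genes that mark the precursor surface depended on single mice. Of 18 listed and tested, 15 were lower at 1 d (median −0.19), 12 at 7 d (median −0.18) and 13 at 14 d (median −0.15), against about equal numbers over all genes (1810, 1747 and 1685 of 3416 lower), and 0, 0 and 1 had an unadjusted p under 0.05. At 14 d 2 of the 18 lay below all uninjured mice, where 107 of all 3416 genes lay below and 222 above (9.63% together). Without WT uninjured replicate 1, 7, 5 and 5 of the 18 were lower and the medians turned to 0.13, 0.27 and 0.19, against 0.04, 0.16 and 0.14 over all genes. Without WT 14 d replicate 1 the median at 14 d was 0.04. The 18 summed to 42094 CPM in WT uninjured replicate 1 and to 21017 and 21366 CPM in the other 2 uninjured mice of the fit, with 10 of the 11 injured mice above those 2. Leaving out WT uninjured replicate 1 also turned the medians of the adhesion molecules and of the channels and receptors to the higher side at each time, those of the Wnt genes at 1 d and 14 d, those of the proteoglycans and growth factor receptors at 7 d and 14 d, and that of the myelin genes at 14 d. Pdgfra was at 1367, 766, 239 and 716 CPM in uninjured mice, 718, 872 and 425 CPM at 1 d, 1061, 832, 575 and 726 CPM at 7 d, and 527, 787, 691 and 844 CPM at 14 d. Its log2 fold change was −0.64 ± 0.45, −0.36 ± 0.39 and −0.49 ± 0.39 at the 3 times, with overlapping groups and an edgeR adjusted p of 1.00 at 1 d. Its mean over the times was −0.50 ± 0.34, and −1.14 without the 6 mice.

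Tnr was at 5392, 2423, 2505 and 2581 CPM in uninjured mice, 3479.5, 5184 and 1994 CPM at 1 d, 5040.4, 6229, 3777 and 3323 CPM at 7 d, and 3649.7, 6172, 4656 and 2806 CPM at 14 d. Its injured and uninjured mice overlapped, at a mean log2 fold change of 0.20 ± 0.39 that was −0.70 without the 6 mice. Lhfpl3 was at 5934, 3375, 2545 and 3449 CPM in uninjured mice, 5909.6, 5383 and 2851 CPM at 1 d, 6662, 5198, 4789 and 3157 CPM at 7 d, and 3469, 5953, 5930.1 and 4852 CPM at 14 d. Its mean was 0.11 ± 0.36, again with overlap, and its sign turned to −0.09 without the shallow libraries and −0.45 without the 6 mice. C1ql1, a ligand of adhesion receptors, was at 451, 642, 239 and 846 CPM in uninjured mice, 619, 224, 397 and 202 CPM at 7 d, and 264, 261, 202 and 239.6 CPM at 14 d. All 4 mice at 14 d lay below the uninjured mice of the fit, at a log2 fold change of −1.51 ± 0.53 (edgeR adjusted p = 0.735), −1.47 without the shallow libraries and −0.66 without the 6 mice. Opcml, a cell adhesion molecule anchored in the membrane, was at 4307, 1656, 1948 and 2061 CPM in uninjured mice and 5689, 4446, 5721 and 3074 CPM at 7 d, with 0.72 ± 0.46 at 7 d.

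Chondroitin sulfate proteoglycans, tenascins and their enzymes, which build the matrix of the glial scar, had mixed signs. Of 21 listed genes 14 were tested, with 5, 6 and 5 higher at 1 d, 7 d and 14 d and medians of −0.20, −0.20 and −0.12. Vcan was at 3192, 1118, 875 and 1193 CPM in uninjured mice, 1712, 2044 and 1081 CPM at 1 d, 1945, 1903, 1031 and 1477 CPM at 7 d, and 1388, 2375, 1845 and 1389 CPM at 14 d. Its groups overlapped, at a mean log2 fold change of −0.19 ± 0.37 that turned to 0.43 without WT uninjured replicate 1. Bcan, the brain proteoglycan brevican, was at 741, 559, 358 and 716 CPM in uninjured mice and 444, 284, 336 and 313 CPM at 14 d. Its 14 d mice were all below the uninjured mice of the fit (−1.09 ± 0.37, edgeR adjusted p = 0.735), and the value was −1.02 and −0.99 without the shallow libraries and the 6 mice. Cspg5, neuroglycan C, was lower in the same way, at 1642, 1035, 596 and 954 CPM in uninjured mice and 375, 522, 684 and 781 CPM at 14 d and a log2 fold change of −1.10 ± 0.46. Ust, a sulfotransferase that modifies chondroitin chains, was at 649, 145, 239 and 260.3 CPM in uninjured mice and 1032, 1143, 853 and 689 CPM at 7 d, above the uninjured mice at 7 d (1.25 ± 0.48, edgeR adjusted p = 0.632), and 0.20 without the 6 mice. Ptprz1, a receptor phosphatase that carries chondroitin sulfate, was at 3505, 1801, 1034 and 1800.4 CPM in uninjured mice and 2264, 2093 and 1113 CPM at 1 d, with −0.48 ± 0.42 at 1 d.

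Among 22 transcription factors of the lineage, 14 were tested, with 3 higher at 1 d (median −0.30), 8 at 7 d (median 0.08) and 10 at 14 d (median 0.22). The median at 7 d turned in sign for 3 mice left out, and that at 14 d for 1. Olig2, which specifies the lineage, was at 405, 435, 119 and 434 CPM in uninjured mice, 718, 249 and 104 CPM at 1 d, 383, 152, 307 and 207 CPM at 7 d, and 222, 247, 225 and 288 CPM at 14 d. It lay below the uninjured mice of the fit at 7 d and at 14 d, and overlapped with them at 1 d, with log2 fold changes of −0.66, −0.81 and −0.84. Its relative Olig1 was at 1062, 1056, 596 and 998 CPM in uninjured mice and 819, 558, 807 and 524 CPM at 14 d, also below at 14 d. Sox4, a factor of immature cells, was at 7.64, 62.1, 0 and 108 CPM in uninjured mice, 276, 74.8 and 192 CPM at 1 d, 236, 95.96, 377 and 88.1 CPM at 7 d, and 278, 86.9, 411 and 128 CPM at 14 d. Its log2 fold change was 1.97 ± 0.79 at 14 d (edgeR adjusted p = 0.852) from 9 UMIs in uninjured mice, with all mice at 14 d above 2 of the 3 uninjured ones. Without the 6 mice it was among the 49 genes called at 14 d, against 1 UMI in the lone uninjured mouse. Etv1, an ETS factor, was at 206, 82.8, 199 and 239 CPM in uninjured mice and 88.4, 112, 69.4 and 46.7 CPM at 7 d, with −1.31 ± 0.47 at 7 d (edgeR adjusted p = 0.632). Sox6, which holds precursors in their state, stood at 1428, 932, 596 and 1193 CPM in uninjured mice and 1592, 1727, 1169.9 and 1317 CPM at 7 d, with overlapping groups. Its relative Sox5 did so too, at 1168, 600.5, 477 and 499 CPM in uninjured mice and 648, 1008, 357 and 617 CPM at 7 d.

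Growth factor receptors, through which OPCs are driven to divide and survive, were represented by 9 of 16 listed genes, of which 2, 3 and 2 were higher at 1 d, 7 d and 14 d (medians −0.17, −0.13 and −0.34). Fgfr2, a receptor for fibroblast growth factors, was at 153, 82.8, 318 and 21.7 CPM in uninjured mice, 147, 168, 317 and 295 CPM at 7 d, and 153, 233, 187 and 260.5 CPM at 14 d, with log2 fold changes of 1.04 ± 0.53 and 0.88 ± 0.51. Insr, the insulin receptor, was at 214, 82.8, 159 and 130.1 CPM in uninjured mice and 55.2, 99.7 and 64.1 CPM at 1 d, with −1.38 ± 0.65 at 1 d. The neuregulin receptor Erbb4 was at 2978, 932, 1669.8 and 1106 CPM in uninjured mice and 777, 1885, 1592 and 1195 CPM at 14 d (−0.40). For the neurotrophin receptor Ntrk3 the values were 557, 600.5, 239 and 369 CPM in uninjured mice and 291, 453, 502 and 455 CPM at 14 d (−0.34), with overlap for both.

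Wnt signalling holds back precursor differentiation, and 11 of its 33 listed receptors, effectors and targets were tested, 4, 6 and 4 of them higher at 1 d, 7 d and 14 d (medians −0.14, 0.23 and −0.04). In the deeper libraries, 18 were tested and 15 and 11 were higher at 7 d and 14 d, and 12 in the 1 mouse left at 1 d. Tcf7l1, a repressor of Wnt targets, was at 22.9, 0, 39.8 and 0 CPM in uninjured mice and 0, 136, 129 and 72.6 CPM at 7 d. These rest on 3 UMIs in the uninjured mice of the fit, all in WT replicate 1, and 44 UMIs at 7 d, and WT 7 d replicate 1 had none. Fzd9, a Frizzled receptor, was at 137, 62.1, 0 and 43.4 CPM in uninjured mice and 13.9, 41.2, 20.2 and 17.4 CPM at 14 d, below the uninjured mice of the fit at 14 d (−1.64 ± 0.69, edgeR adjusted p = 0.852). Apc, of the complex that degrades beta-catenin, was at 344, 248, 676 and 282 CPM in uninjured mice and 166, 174 and 200.2 CPM at 1 d, below the uninjured mice of the fit (−0.83). Gsk3b, of the same complex, was at 229, 352, 199 and 239 CPM in uninjured mice and 387, 174 and 224 CPM at 1 d (−0.28), with overlap.

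Of 24 Bmp and Notch genes, which steer precursors towards or away from the astrocyte and oligodendrocyte fates, 7 were tested, with 4, 5 and 4 higher (medians 0.03, 0.06 and 0.13). These medians turned in sign when any of 10 mice was left out at 1 d (down to −0.45), and any of 2 mice at 7 d and at 14 d. Bmp4 was at 45.8, 20.7, 119 and 43.4 CPM in uninjured mice, 55.2, 74.8 and 0 CPM at 1 d, 118, 39.98, 139 and 20.7 CPM at 7 d, and 83.3, 238, 119 and 101 CPM at 14 d. Its 14 d mice lay above the uninjured mice of the fit, at a log2 fold change of 1.76 ± 0.76 (edgeR adjusted p = 0.852), 1.87 without the shallow libraries and 1.16 without the 6 mice. Smad7, an inhibitor within cells of this pathway, was at 15.3, 0, 39.8 and 43.4 CPM in uninjured mice, 55.2, 74.8 and 232 CPM at 1 d, 58.95, 15.99, 129 and 98.5 CPM at 7 d, and 27.8, 50.3, 70.7 and 83.4 CPM at 14 d. It was above the uninjured mice at 1 d (2.12 ± 0.81, edgeR adjusted p = 1.00), from 4 UMIs in uninjured mice. The receptor Bmpr2 was at 137, 166, 79.5 and 108 CPM in uninjured mice and 55.2, 174 and 48.1 CPM at 1 d, with overlap. Notch1, a receptor of the other pathway, was at 137, 145, 39.8 and 43.4 CPM in uninjured mice and 0, 149.5 and 72.1 CPM at 1 d, with overlap too.

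Adhesion molecules made up a list of 19, with 17 tested and 4, 6 and 8 higher at 1 d, 7 d and 14 d (medians −0.16, −0.14 and −0.03). Lrp1, an endocytic receptor that clears lipoproteins and myelin debris, was at 886, 994, 676 and 824 CPM in uninjured mice, 387, 548 and 384 CPM at 1 d, 324, 784, 288 and 487 CPM at 7 d, and 486, 792, 512 and 750.2 CPM at 14 d. At each time the injured mice lay below the uninjured mice of the fit, with log2 fold changes of −1.13 ± 0.48 at 1 d and −0.59 ± 0.41 at 14 d and a mean of −0.90 ± 0.35 (edgeR adjusted p = 0.736). The mean was −0.70 without the shallow libraries and −1.42 without the 6 mice. Nfasc was at 473, 124, 795 and 260.3 CPM in uninjured mice, 828, 349 and 1706 CPM at 1 d, 1562, 1607, 2905 and 1016 CPM at 7 d, and 999, 325, 1337 and 580.0 CPM at 14 d. Its 7 d mice lay above the uninjured mice of the fit (2.36 ± 0.64, edgeR adjusted p = 0.267, and called with no filter on low counts), with 2.06 without the shallow libraries and 1.44 without the 6 mice. The synaptic adhesion molecule Nlgn1 was at 5506, 2568, 2067 and 2495 CPM in uninjured mice and 4539, 4574, 3083 and 2483 CPM at 7 d, with overlapping groups.

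Of 31 glutamate and GABA receptors and ion channels, 21 were tested, with 8, 9 and 9 higher and medians of −0.06, −0.03 and −0.06, close to those of all genes. With single mice left out, these medians turned in sign and reached 0.41, 0.62 and 0.53, against at most 0.04, 0.16 and 0.14 over all genes. Scn8a, a voltage-gated sodium channel, was at 84.01, 41.4, 79.5 and 21.7 CPM in uninjured mice, 55.2, 249 and 120.1 CPM at 1 d, 177, 208, 69.4 and 187 CPM at 7 d, and 139, 178, 139 and 167 CPM at 14 d. Its mice at 14 d lay above the uninjured mice of the fit, with log2 fold changes of 1.44 ± 0.56 at 7 d and 1.40 ± 0.55 at 14 d (edgeR adjusted p = 0.641 and 0.852). Without the 6 mice these were 0.46 and 0.47. The potassium channel Kcnd2 was at 4109, 1346, 1431 and 954 CPM in uninjured mice and 1712, 2293 and 1482 CPM at 1 d, a log2 fold change of −0.18. For the AMPA receptor subunit Gria4 the values were 2749, 1097, 557 and 824 CPM in uninjured mice and 1933, 1719.6 and 1025 CPM at 1 d (−0.01). The metabotropic receptor Grm5 stood at 1642, 766, 954 and 1085 CPM in uninjured mice and 828, 1171 and 633 CPM at 1 d (−0.58), and the groups of all 3 overlapped.

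Genes of reactive glia were few in OPCs, 7 of 25 listed being tested, of which 5 were higher at 1 d, 5 at 7 d and 6 at 14 d (medians 1.21, 0.42 and 1.01). Without cKO 1 d replicate 2 the median at 1 d turned to −0.78. Serpina3n, a secreted serine protease inhibitor, was at 30.5, 0, 0 and 0 CPM in uninjured mice, 718, 74.8 and 384 CPM at 1 d, 560.0, 0, 139 and 67.4 CPM at 7 d, and 111, 27.5, 136 and 41.7 CPM at 14 d. The 1 d mice lay above the uninjured mice, with a log2 fold change of 4.49 ± 1.32 (edgeR adjusted p = 1.00) from 4 UMIs in uninjured mice, all in WT replicate 1. With no filter on low counts edgeR called it. At 7 d the value of 3.13 was 0.57 without the shallow libraries. Vim, the intermediate filament vimentin, was at 15.3, 0, 0 and 0 CPM in uninjured mice and 221, 74.8 and 136 CPM at 1 d, with 2 UMIs in the uninjured mice of the fit. The astrocyte markers summed in OPCs to 1321, 973, 2226 and 716 CPM in uninjured mice and 608, 1171 and 1338 CPM at 1 d, with Slc1a2 the most abundant and 0 of 7 at 0. The microglial markers summed to 84.01, 145, 79.5 and 347 CPM in uninjured mice and 55.2, 249 and 232 CPM at 1 d, with 0 of 7 at 0. Their part in these values was not tested.

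Antigen presentation and interferon genes were tested for 3 of 26 members, 3 of them higher at 1 d, 2 at 7 d and 2 at 14 d (medians 1.00, 0.48 and 0.18). With a mouse left out, the median at 7 d turned in sign for 4 of the 14 mice (down to −0.09) and that at 14 d for 6 (down to −0.85). B2m, the light chain of class I molecules, was at 61.1, 0, 0 and 43.4 CPM in uninjured mice and 55.2, 125 and 184 CPM at 1 d, with 1.55 ± 0.78 at 1 d and overlap. Ifi27, an interferon-induced gene, was at 91.6, 186, 39.8 and 86.8 CPM in uninjured mice and 387, 125 and 176 CPM at 1 d, with 1.00 ± 0.77. H2-D1, a class I heavy chain, was the 1 member with an unadjusted p under 0.05, at 14 d (edgeR adjusted p = 0.852). It was at 99.3, 104, 0 and 65.1 CPM in uninjured mice and 13.9, 41.2, 37.9 and 20.8 CPM at 14 d, below the uninjured mice of the fit (−1.48 ± 0.60). Immediate early and stress genes had 7 of 24 tested, with 6, 3 and 2 higher (medians 0.69, −0.02 and −0.16), and the median at 7 d turned in sign for 7 mice left out and that at 14 d for 2. Jund, a subunit of the AP-1 factor, was at 38.2, 311, 159 and 347 CPM in uninjured mice, 58.95, 15.99, 109 and 57.02 CPM at 7 d, and 111, 32.03, 146 and 69.5 CPM at 14 d. It was high in WT replicate 2 and cKO replicate 2 of the uninjured mice, both named differently. Its log2 fold change of −2.12 ± 0.72 at 7 d turned to 1.04 without the 6 mice, and −1.51 at 14 d to 1.81. The chaperone gene Hspa8 was at 99.3, 621, 278 and 347 CPM in uninjured mice and 442, 474 and 384 CPM at 1 d, with 0.15 ± 0.67.

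Cell cycle genes were rarely counted, and 1 of 27, Ccnd1, passed the filter on low counts. Ccnd1, cyclin D1 of the entry into the cycle, was at 183, 352, 79.5 and 130.1 CPM in uninjured mice, 939, 324 and 417 CPM at 1 d, 442, 208, 387 and 238 CPM at 7 d, and 444, 288, 540.0 and 271 CPM at 14 d. Its log2 fold change was 1.18 ± 0.52 at 1 d (edgeR adjusted p = 1.00), with overlapping groups. With single mice left out this value ran from 0.24 to 1.25. The 25 cell cycle genes other than D cyclins summed to 152 CPM in OPCs and 209 CPM in all other cells. Mki67 or Top2a, genes of dividing cells, had a UMI in 22 of 637 OPCs (3.45%), against 59 of 2486 neurons (2.37%) and 11 of 813 microglia of Cluster 10 (1.35%). They were found in 0 of 94 OPCs of uninjured mice at a median of 2606 UMIs, and in 0 of 156 at 1 d at 566 UMIs. These zeros allow shares of up to 3.19% and 1.92% for cells with a UMI, and set no limit on the share of dividing cells. At 7 d they were found in 8 of 249 cells at a median of 647 UMIs, and at 14 d in 14 of 138 at a median of 3835 UMIs. By mouse these were 0, 4.55, 1.5 and 16.7% of OPCs at 7 d (0, 1, 2 and 5 cells) and 9.09, 3.57, 14.7 and 11.1% at 14 d (2, 1, 5 and 6 cells). Depth differed between the times, and after thinning to 1000 UMIs Mki67 was left in 0.627% of OPCs (2.82% before thinning) and 0.519% of microglia of Cluster 6.

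The genes that DESeq2 called, all named after their values were seen, had the same direction in edgeR. They did not pass its threshold in the fit of all 14 mice with the filter on low counts and no replicate block. With no filter on low counts, edgeR called Vgf at 1 d, Frmd4a, Kirrel3 and 9530059O14Rik at 7 d, and mt-Rnr2 at 7 d, at 14 d and for the mean, beside Serpina3n at 1 d and Enpp6, Cnksr3 and Nfasc at 7 d, which DESeq2 did not call. The endothelial marker Slco1a4 and the astrocyte marker Gja1 were among the calls of that fit at 7 d. Frmd4a, which encodes a scaffold protein of cell polarity, was at 481, 289.9, 676 and 781 CPM in uninjured mice, 663, 972 and 1506 CPM at 1 d, 2211, 5917, 3410.5 and 3099.8 CPM at 7 d, and 2082, 759.5, 1615 and 827 CPM at 14 d. Its 7 d mice lay above the uninjured mice (2.72 ± 0.56, DESeq2 adjusted p = 0.00128, edgeR adjusted p = 0.238), with 3.08 without the shallow libraries and 2.07 without the 6 mice. Tmem108, a transmembrane protein, was at 153, 248, 914 and 195 CPM in uninjured mice, 828, 474 and 585 CPM at 1 d, 1297, 664, 962 and 689 CPM at 7 d, and 722, 316, 1022 and 472 CPM at 14 d. It lay above the uninjured mice of the fit at each time, with a mean of 1.69 ± 0.44 (DESeq2 adjusted p = 0.0389). The adhesion molecule Kirrel3, the Rac activator Dock4, Ankrd44, Slc22a23 and 9530059O14Rik were called at 7 d as well, with edgeR log2 fold changes of 2.13, 1.22, 2.26, 1.62 and 3.14 and DESeq2 adjusted p between 0.0213 and 0.0277. Ramp1, a partner of the receptor for calcitonin gene-related peptide, was lower, at 466, 373, 199 and 542 CPM in uninjured mice and 206, 176, 119 and 192 CPM at 7 d (−1.54 ± 0.41, DESeq2 adjusted p = 0.0449). Fbn2, a fibrillin of extracellular microfibrils, was called by neither tool. It was at 7.64, 41.4, 119 and 21.7 CPM in uninjured mice, 221, 74.8 and 112 CPM at 1 d, 118, 119.9, 119 and 104 CPM at 7 d, and 180.4, 156, 126 and 76.4 CPM at 14 d, above the uninjured mice of the fit at each time. Its mean log2 fold change was 2.71 ± 0.58 (edgeR adjusted p = 0.283), from 4 UMIs in the uninjured mice of the fit, while the third uninjured value rests on the mouse with 8 OPCs.

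The mitochondrial ribosomal RNAs were on the lower side after injury. DESeq2 called mt-Rnr2 at 7 d, at 14 d and for the mean, and mt-Rnr1 for the mean alone, and neither tool called them at 1 d. mt-Rnr2, the large ribosomal RNA, was at 12166, 16171, 6719 and 21323 CPM in uninjured mice, 3921, 6031 and 9131 CPM at 1 d, 6927, 3806, 4917 and 6282 CPM at 7 d, and 5495, 4662, 3349 and 3779 CPM at 14 d. Every injured mouse lay below the 3 uninjured mice of the fit, though the third uninjured value was below 2 of the injured ones. The mean log2 fold change was −1.79 ± 0.35 (DESeq2 adjusted p = 0.000134, edgeR adjusted p = 0.178), and −1.56 without the shallow libraries and −1.37 without the 6 mice. mt-Rnr1, the small ribosomal RNA, had a mean of −1.49 ± 0.37 (DESeq2 adjusted p = 0.0389). Beside this, the median percent of mitochondrial UMIs per OPC was 3.48, 2.49, 2.23 and 3.96% in uninjured mice and 2.97, 2.99 and 2.73% at 1 d. At 7 d it was 3.63, 1.27, 2.51 and 1.27%, and at 14 d it was 1.03, 1.69, 1.18 and 1.33%. The part of this measure of RNA quality in the result was not tested.

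Between genotypes, over all times, edgeR called 0 of 3416 OPC genes (0%) with a smallest adjusted p of 1.00, DESeq2 called 0 (0%), and 86 genes (2.52%) had an unadjusted p under 0.05. Of the precursor surface genes 18 of 18 were lower in cKO mice, with a median log2 fold change of −0.30 against −0.00 over all genes, and 2 had an unadjusted p under 0.05. They were Nxph1 and Matn4. Nxph1, a secreted glycoprotein, had values from 847 to 2773 CPM (median 2388) in the 7 WT mice and from 881 to 1587 CPM (median 1071) in the 7 cKO mice (−0.79 ± 0.32, edgeR adjusted p = 1.00). The matrix protein gene Matn4 had values from 166 to 589.5 CPM (median 389) in the 7 WT mice and from 167 to 258 CPM (median 207) in the 7 cKO mice (−0.73 ± 0.31). Both genotypes overlapped for either gene. In the deeper libraries alone, 18 of 18 were again lower, with a median of −0.38. Without WT uninjured replicate 1, 13 of 18 were lower, with a median of −0.19. Without the 6 mice Tnr, 1 of the 18, was at 0.07 between genotypes. Of 14 proteoglycan and tenascin genes 13 were lower in cKO mice (median −0.27), and of 21 channels and receptors 15 (median −0.24). Some proteoglycan genes, such as Vcan, are also among the 18 surface genes, so those counts are not separate. The kainate receptor subunit Grik5 had values from 20.7 to 331 CPM (median 128) in the 7 WT mice and from 43.4 to 119 CPM (median 93.8) in the 7 cKO mice (−0.78 ± 0.35).

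Myelin genes were on the higher side in cKO OPCs, 9 of 12 tested (median 0.55) against 49.6% of all genes, with 2 at an unadjusted p under 0.05 against 2.52% of all genes. Mobp, a protein of compact myelin, lay from 110.5 to 269 CPM (median 168) in the 7 WT mice and from 134 to 824 CPM (median 403) in the 7 cKO mice, with overlap. Its log2 fold change was 1.26 ± 0.38 (edgeR adjusted p = 1.00), and 0.89 without the shallow libraries and 1.42 without the 6 mice. For Mbp the values ran from 1504 to 2303 CPM (median 1624) in the 7 WT mice and from 1673 to 5925 CPM (median 3126) in the 7 cKO mice (0.81 ± 0.32). The oligodendrocyte markers as a whole were higher in cKO mice for 6 of 7 tested (median 0.81), and for 6 of 8 without the shallow libraries (median 0.64). All 10 of these markers are among the 15 myelin genes, so the counts are not separate. Their part in the lower surface genes was not tested.

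Smad7 lay from 0 to 58.95 CPM (median 27.8) in the 7 WT mice and from 43.4 to 232 CPM (median 83.4) in the 7 cKO mice. This was a log2 fold change of 1.38 ± 0.46 (edgeR adjusted p = 1.00) and 1.29 without the shallow libraries. Tmsb10, an actin-binding thymosin, lay from 22.9 to 222 CPM (median 73.2) in the 7 WT mice and from 49.8 to 304 CPM (median 208) in the 7 cKO mice (1.08 ± 0.50). The smallest unadjusted p of this comparison, 0.00192, was that of Aldh1l1, an enzyme of folate metabolism in astrocytes that was chosen after its values were seen. It was at 15.3, 0, 79.5 and 0 CPM in uninjured mice, 0, 24.9 and 136 CPM at 1 d, 0, 15.99, 0 and 181 CPM at 7 d, and 13.9, 13.7, 131 and 181 CPM at 14 d. Its log2 fold change was 2.86 ± 0.80 (edgeR adjusted p = 1.00). Astrocyte markers in OPCs were higher in cKO mice for 3 of 4 tested, with sums of 589.5, 1927, 704 and 2488 CPM at 7 d and 513, 965, 573 and 1594 CPM at 14 d. Slc1a2 was the most abundant of the 7, 0 of them were at 0, and their part in the result was not tested. Committed precursor genes were split, 7 higher and 7 lower (median 0.02), as were Wnt genes with 5 of 11 higher (median −0.07). With single mice left out, these medians ran from −0.24 to 0.13 and from −0.16 to 0.06. Lineage transcription factors had 4 of 14 higher (median −0.16), growth factor receptors 3 of 9 (median −0.12), Bmp and Notch genes 2 of 7 (median −0.11) and adhesion molecules 6 of 17 (median −0.13). The medians of the growth factor receptors, Bmp and Notch genes and adhesion molecules turned in sign with single mice left out (up to 0.10, 0.06 and 0.01). Antigen presentation genes had 1 of 3 higher (median −0.55), reactive glia genes 5 of 7 (median 0.44) and immediate early genes 7 of 7 (median 0.33). The log2 fold change of Ccnd1 was −0.33, and with single mice left out it turned in sign, ranging from −0.54 to 0.52.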

How the data were processed

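The authors aligned the reads with Cell Ranger (version not given in the sources used here) to GRCm38/mm10, and deposited raw UMI counts of 55487 genes in 18203 cells, kept in Seurat (R 4.1.2) with over 200 genes and under 25% mitochondrial UMIs. The deposited percent of mitochondrial UMIs per cell was made by the authors from the same values and was used here as a description, and their clusters and annotations were taken as deposited. Cluster 2, which also carried an astrocyte label, was not counted among the astrocytes here. Members and gene lists were chosen with earlier results of these data known.

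UMIs of OPCs were summed per mouse in 14 mice with at least 10 OPCs and tested with edgeR 4.0.16 (TMM, filterByExpr, time plus genotype), with DESeq2 1.42.0 as the alternative, in R 4.3.3. Shares were compared with exact permutation tests in mice with at least 50 cells (20 of the lineage), adjusted over 4 tests, in Python 3.11.15 (numpy 2.4.6, pandas 2.3.3, scipy 1.17.1). Named genes were the 5 label markers and Ryk, and, of each of 14 lists, every called member, or otherwise up to 3 with the highest mean level and up to 3 with the smallest unadjusted p, plus up to 5 called genes in each direction per comparison. The 20 genes with the highest fold are a description. Some genes that the rule names are not reported here. The procedure was tested on simulated counts. The deposited batch column equals the replicate number, which served as the block in an alternative. A pairing of same-numbered mice is not given in the sources used here. The deviations of same-numbered mice from their group means correlated from −0.48 to 0.47 over 15 pairs of conditions. The alternatives were DESeq2, no filter on low counts, the replicate block, at least 20 OPCs per mouse, cells with at least 1000 UMIs, the conditions of the cell names, condition means, injured mice alone and each mouse left out.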

Additional observations from a re-analysis of the deposited data

Results flagged for a closer look

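In 13 of 198 groups of 4 mice looked at, a single mouse stood far from the other 3, where chance flags about 1 in 20 groups. No explanation was tested. The WT 14 d replicate 2 had an OPC share of 13.3% of lineage cells, against 17.4 to 18.0% in the other mice at 14 d. In cKO 7 d replicate 2, markers of pericytes summed in OPCs to 51.8 CPM (0 in the other 3), of neurons to 477 CPM (206 to 216) and of Schwann cells to 98.5 CPM (19.8 to 32.0). Bmpr1a was at 67.4 CPM in the same mouse, against 118 to 128 CPM. Antigen presentation genes summed to 638 CPM in WT 14 d replicate 1, against 366 to 386 CPM, and Ifi27 was at 347 CPM there, against 69.5 to 98.4 CPM. In WT 7 d replicate 2, Cadm1 was at 976 CPM (619 to 664 in the others) and Notch1 at 136 CPM (79.3 to 88.4). Notch1 was at 50.3 CPM in WT 14 d replicate 2, against 79.9 to 85.8 CPM. Gria1 was at 115 CPM in cKO 14 d replicate 2, against 13.9 to 27.5 CPM, and Mbp at 3126 CPM there, against 1624 to 1780 CPM. Grik5 was at 69.4 CPM in cKO 7 d replicate 1, against 118 to 120 CPM.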

How the results depend on the processing

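Of 183 alternative values of the counts of called genes and of the shares, 164 were labelled the same. For counts this means that 0 genes were called, and for shares that direction and side of the threshold were kept. In the rest, 15 counts moved from 0 and 4 shares turned in sign. Of 1832 values over 84 pairs of gene and comparison, 1783 kept direction and side of the threshold. Among the rest, 30 came to pass the threshold in the same direction and 19 turned in sign. The cause was not tested. Against 0 calls by edgeR, DESeq2 called 1 gene at 1 d, 9 at 7 d, 1 at 14 d and 3 for the mean of the times. With no filter on low counts (24269 genes), edgeR called 11, 29, 7 and 11 genes, and 3 between genotypes (Aldh1l1, Tsix and Xist, chosen after their values were seen). The study used mice of both sexes, and the part of sex in the comparison of genotypes was not tested. The replicate block gave 1 call at 1 d, Vgf, and changed no other call. Without the 6 mice named differently, an alternative chosen after seeing the data, there were 49 calls at 14 d and 6 for the mean, with a lone uninjured mouse that is assumed to vary like the other groups.

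The share of all cells differed between injured and uninjured mice by −0.369 points without the shallow libraries and −0.371 points without the 6 mice, and the share of lineage cells by −2.98 points in cells with at least 1000 UMIs. With each mouse left out in turn, calls ranged from 0 to 1 at 1 d and stayed at 0 in the other comparisons. The shares ranged from 0.272 to 1.42 points (all cells, injury), 2.40 to 4.43 (lineage, injury), 0.173 to 2.00 (all cells, genotype) and −0.364 to 6.26 (lineage, genotype).

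With the conditions of the cell names, the mean log2 fold change after injury turned to −0.0188 for Tnr, −0.0905 for Lhfpl3 and −0.0706 for Ryk. Without the shallow libraries Lhfpl3 was at −0.0901, and Gpr17 between genotypes at −0.0599. Without the 6 mice, the mean was −0.70 for Tnr, −0.45 for Lhfpl3 and 1.52 for Jund (1.04 at 7 d and 1.81 at 14 d), Tcf7l1 at 7 d was −0.0535 and Tnr between genotypes 0.0728. With condition means, Cnksr3 at 1 d was −1.0. Over mice left out in turn, the mean ranged from −0.0456 to 0.64 for Tnr, −0.0856 to 0.43 for Lhfpl3 and −0.49 to 0.43 for Vcan, and Gpr17 between genotypes from −0.10 to 0.29.

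The comparisons of genes at each time rest on 3 or 4 injured mice and the same 3 uninjured mice. The 4 shallow libraries hold 311 of the 637 OPCs, and for 6 mice the cell names contradict the labels. Library depth and replicate number are tied at 1 d and 7 d, so their parts cannot be told apart.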
